A study of Mus musculus with 18 samples.

Results

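Genes of cholesterol synthesis and of its regulator SREBP2 were followed in lipochondrocytes, the lipid-storing cells of the mouse ear cartilage plate. The set was a list of 30 gene symbols, whose rule used no measured value but which was drawn up with earlier results of these data known: 4 genes of acetyl-CoA supply and the early mevalonate steps, 6 from mevalonate to squalene, 10 from squalene to cholesterol, 6 for SREBP2 and its processing and 4 for sterol transport and storage. All 30 were among the 46983 genes of the deposited table, and each stood at 1.40 FPKM or more in all 18 libraries, so all were tested. FPKM are sequenced fragments scaled to gene length and to library size. Lipochondrocytes were taken at postnatal days 8, 10, 13, 21 and 33 (P8 to P33), and adipocytes from inguinal fat at P33 served as the other fat-storing cell, with 3 RNA sequencing libraries in each of the 6 groups. All groups, adipocytes included, carried Wnt1-Cre2;TdTomato on a C57BL/6 background, in which a Cre with the expression pattern of Wnt1 switches on a red reporter, chiefly in neural crest derivatives. Cells of P8, P10 and P13 were freed with 1% collagenase and sorted for high TdTomato. Lipochondrocytes of P21 and P33 and the adipocytes were instead taken as the fraction that floated on centrifugation, with no sort stated and with the cartilage dissected so as to avoid adipocytes, so age and isolation cannot be told apart between P21 and P13.

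Cells build cholesterol from acetyl-CoA by way of mevalonate, farnesyl diphosphate, squalene and lanosterol. SREBP2 is a transcription factor held in the endoplasmic reticulum by SCAP and the INSIG proteins while sterols are plentiful. When sterols run low it travels to the Golgi, where the site-1 and site-2 proteases release the part that enters the nucleus and switches on nearly every gene of the route, INSIG1 among them. Cartilage carries few blood vessels, and its chondrocytes are known to make cholesterol themselves.

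Promoter sequence is shown for the 4 genes that were called higher in 3 of the 5 comparisons between stages, Aacs, Acat2, Pmvk and Tm7sf2. Hmgcs1 and Insig1 were added after their values were seen, Hmgcs1 as an early pathway gene with another course and Insig1 as the sterol-responsive brake on SREBP2. Each window runs from 250 bases before to 50 after the RefSeq transcript start (GRCm38.p6) and is written 5′ to 3′ on the gene's strand. Capitals mark matches to 3 motifs searched on both strands: TCACNCCAC (a sterol regulatory element core), CCAAT (the NF-Y box, read as ATTGG on the other strand) and CACGTG (an E-box). The windows lie at chr5:125475623-125475922 for Aacs (plus strand), chr17:12960676-12960975 for Acat2 (minus), chr3:89454291-89454590 for Pmvk (plus), chr19:6067801-6068100 for Tm7sf2 (minus), chr13:119690101-119690400 for Hmgcs1 (plus) and chr5:28071162-28071461 for Insig1 (plus).
Aacs: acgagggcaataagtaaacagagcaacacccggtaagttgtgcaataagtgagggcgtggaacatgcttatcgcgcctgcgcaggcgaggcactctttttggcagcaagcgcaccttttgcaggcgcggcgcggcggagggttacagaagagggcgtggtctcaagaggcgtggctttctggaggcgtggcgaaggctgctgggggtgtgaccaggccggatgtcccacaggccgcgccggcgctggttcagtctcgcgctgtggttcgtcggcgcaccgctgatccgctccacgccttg
Acat2: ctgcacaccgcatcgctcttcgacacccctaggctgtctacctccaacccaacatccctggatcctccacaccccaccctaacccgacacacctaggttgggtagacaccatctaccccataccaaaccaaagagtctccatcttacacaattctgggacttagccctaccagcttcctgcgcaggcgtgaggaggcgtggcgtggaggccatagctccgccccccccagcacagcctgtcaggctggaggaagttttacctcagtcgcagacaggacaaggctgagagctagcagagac
Pmvk: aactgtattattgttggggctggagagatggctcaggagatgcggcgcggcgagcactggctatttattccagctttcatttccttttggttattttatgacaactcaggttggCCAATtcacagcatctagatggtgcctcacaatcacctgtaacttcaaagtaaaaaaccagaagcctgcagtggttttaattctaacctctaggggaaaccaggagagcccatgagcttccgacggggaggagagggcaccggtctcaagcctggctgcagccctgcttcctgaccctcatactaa
Tm7sf2: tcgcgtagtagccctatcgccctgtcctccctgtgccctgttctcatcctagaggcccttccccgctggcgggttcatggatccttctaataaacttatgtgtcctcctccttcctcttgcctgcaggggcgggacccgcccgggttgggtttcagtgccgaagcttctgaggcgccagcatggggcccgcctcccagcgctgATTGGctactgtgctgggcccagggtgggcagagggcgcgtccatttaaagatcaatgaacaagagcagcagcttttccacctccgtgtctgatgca
Hmgcs1: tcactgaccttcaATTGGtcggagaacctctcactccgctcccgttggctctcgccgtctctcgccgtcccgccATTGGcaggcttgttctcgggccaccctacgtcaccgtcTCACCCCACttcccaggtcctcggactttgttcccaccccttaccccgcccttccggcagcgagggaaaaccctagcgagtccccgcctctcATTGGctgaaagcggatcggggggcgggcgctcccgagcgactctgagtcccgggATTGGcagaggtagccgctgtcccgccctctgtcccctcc
Insig1: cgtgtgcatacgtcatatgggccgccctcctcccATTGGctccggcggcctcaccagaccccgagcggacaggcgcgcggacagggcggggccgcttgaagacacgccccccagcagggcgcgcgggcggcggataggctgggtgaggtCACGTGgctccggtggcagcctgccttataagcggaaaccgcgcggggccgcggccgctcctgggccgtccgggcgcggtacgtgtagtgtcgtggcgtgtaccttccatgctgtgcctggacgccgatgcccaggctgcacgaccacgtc

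In these letters the Hmgcs1 window held the sterol regulatory element core, 137 to 129 bases before the start, and 4 CCAAT boxes. Insig1 held an E-box and a CCAAT box, Pmvk and Tm7sf2 held 1 CCAAT box each, and no match was found in Aacs or Acat2. Another RefSeq window of Pmvk, at chr3:89459321-89459620, held no match and is not printed. No match in the 6 windows shared a base with another. Of the 30 members, 25 were in the promoter table, with 31 windows, and Fdft1, Sqle, Fdps, Stard4 and Npc1 were not. Among the 25, the sterol regulatory element core was in 1 (Hmgcs1), CCAAT in 20 and CACGTG in 5 (Dhcr7, Hsd17b7, Insig1, Sc5d and Scap). Over the 27025 genes of the table these letters were in 1.44%, 41.1% and 8.09%, in the same order. A match describes the letters only, and no match says nothing of binding.

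Libraries held 12461965 to 27640142 total reads, of which 73.19% to 84.44% aligned. The summed FPKM of 8 cartilage markers was 16000 to 27200 in the lipochondrocyte libraries and 1.31 to 2.06 in the adipocyte libraries, while 8 adipocyte markers summed to 1.02 to 25.2 in lipochondrocytes and 83000 to 88500 in adipocytes, so both labels held. The cartilage sum leaned on Cytl1 (8873 to 20673 FPKM in lipochondrocytes), while Col2a1 had 4370 to 6549 FPKM at P8 and 189 to 245 at P33. Of the 8 cartilage markers, 4 were called lower and 0 higher between P33 and P21, beside 7.17% and 2.87% of all genes. In lipochondrocytes, markers of other cells moved with stage and lay well below the cartilage level, apart from fibroblast and perichondrium markers. Those 8 fibroblast and perichondrium markers summed to 3570 to 5000 FPKM at P8, 6380 to 8480 at P10, 2120 to 2790 at P13, 5260 to 9700 at P21 and 5130 to 9260 at P33. They did not move together: between P21 and P13, 3 were called higher and 2 lower, beside 36% and 7.04% of all genes. The 8 skeletal muscle markers summed to 24.1 to 36.7 at P13, 77.5 to 520.0 at P21 and 26.1 to 201.0 at P33, and the 8 macrophage markers to 3.27 to 3.92 at P13, 16.4 to 27.2 at P21 and 31.5 to 59.3 at P33. In the adipocyte libraries the same macrophage markers summed to 752 to 815 FPKM. The 8 endothelial markers summed to 792 to 854 FPKM in adipocytes and to 14.5 or less in every lipochondrocyte library. The 8 sebocyte markers summed to 2.88 or less in every lipochondrocyte library, with Awat1 listed at 0 in all 3 libraries of P21. The part of these cells in the results below was not tested. Fewer cells of a type and less RNA per cell cannot be told apart in such bulk samples, and the labels do not say whether libraries of a group came from separate animals, so p-values measure the spread between these libraries, which may be technical.

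**Figure D1:**
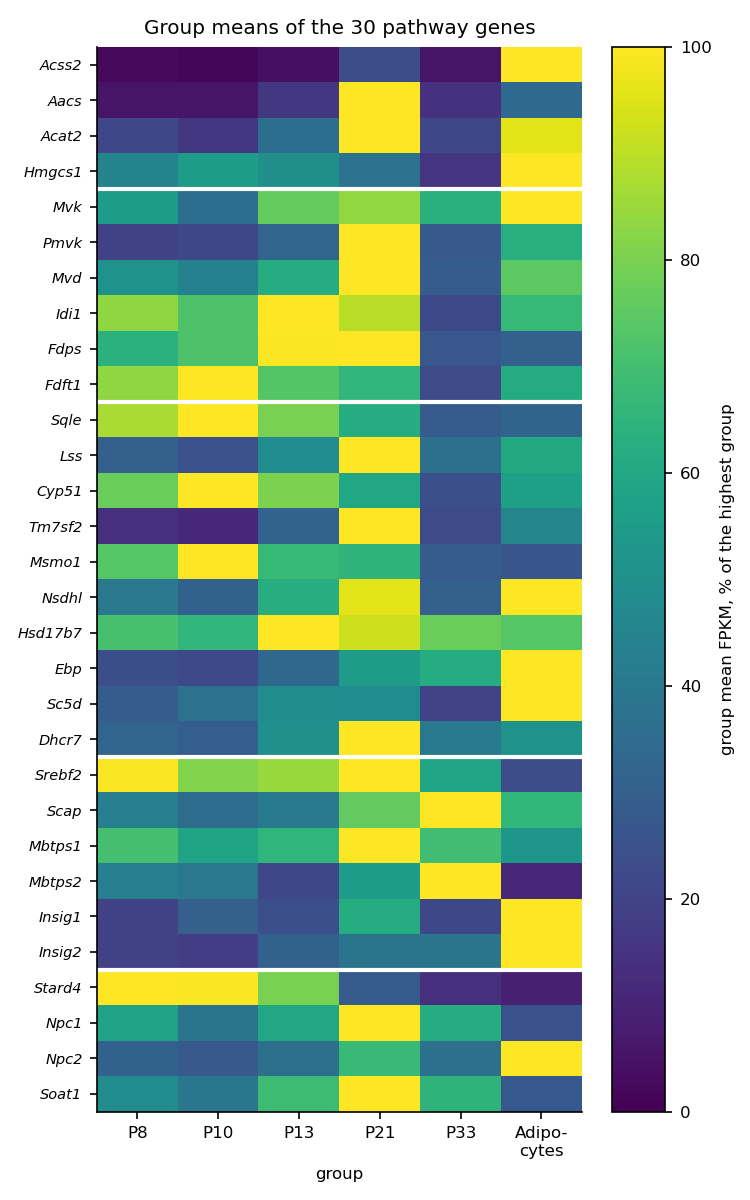
Group mean FPKM of each of the 30 genes as a percentage of its highest group, with white lines between the 5 functional groups of genes. P21 is the brightest stage for 17 genes, P10 for 5, and most synthesis genes are dark at P33.

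Transcripts of the pathway did not follow a single course. Comparing the 5 lipochondrocyte stages by their means, 17 of the 30 genes were highest at P21, 5 at P10 (Hmgcs1, Fdft1, Sqle, Cyp51 and Msmo1), 4 at P33 (Ebp, Scap, Mbtps2 and Insig2), 3 at P13 (Idi1, Hsd17b7 and Sc5d) and 1 at P8 (Stard4). P10 held the lowest stage mean of 15 genes and P33 that of 12. These counts, and the sums that follow, use FPKM as deposited and have no like count over all genes beside them. Over all tested genes the median log2 difference was -0.19 for P10 against P8, 0.15 for P13 against P10 and 0.29 for P21 against P13. The part of such general shifts in the counts and sums was not tested. Summed over all 30 genes, the level was 538 to 594 FPKM at P8, 584 to 667 at P10, 669 to 798 at P13, 1151 to 1526 at P21 and 390.0 to 573 at P33. The P21 sum leaned on Aacs, which alone gave 297 to 427 FPKM there. Within P21, replicate 1 was the highest of the 3 libraries for 21 of the 30 genes, and within P33 replicate 2 was highest for 20. The early stages leaned on single libraries too. Replicate 3 was highest for 18 genes at P8 and 21 at P10, and P13 replicate 1 was lowest for 20.

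Counts of called genes (limma, adjusted p below 0.05) are read against the share of all 13815 tested genes called in the same comparison, since the libraries differed in overall scale. Between P33 and P21, 22 of the 30 genes fell and 0 rose, 73.3% of the set beside 7.17% of all genes called lower and 2.87% called higher. At an unadjusted p below 0.05 there were 1 higher and 23 lower, beside 23.3% of all genes in either direction. The 3 libraries of each group did not overlap for 22 genes, beside 22.2% of all genes. The median log2 difference of the set was -1.15, against -0.02 over all genes. Under median-of-ratios scaling, which sets the libraries to a common level over genes detected in all of them, 22 again fell, beside 5.95%. With only P33 and P21 modelled, 6 fell (Acss2, Aacs, Acat2, Pmvk, Mvd and Fdps), beside 0.709% of all genes. The 8 genes not called in the full model were Mvk, Hsd17b7, Ebp, Scap, Mbtps2, Insig2, Npc1 and Soat1.

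Between P21 and P13, 15 genes rose and 1 (Stard4) fell, 50% of the set called higher beside 36% of all genes and 3.33% lower beside 7.04%, so the count alone says little of the set. Libraries of P21 stood higher in general, with a median of 0.29 over all genes and 0.57 over the set. Scaled by median of ratios, the medians were 0.01 and 0.15, and 7 genes of the set rose (Acss2, Aacs, Acat2, Pmvk, Tm7sf2, Insig1 and Npc2) while 5 fell (Hmgcs1, Fdft1, Sqle, Cyp51 and Stard4), beside 16% of all genes in each direction. The 8 rises lost on scaling were those of Mvd, Lss, Nsdhl, Ebp, Dhcr7, Scap, Mbtps1 and Mbtps2, none of which changed sign. Between P13 and P10, 12 genes rose and 0 fell, 40% of the set called higher beside 18.6% of all genes and none called lower beside 4.03%. At an unadjusted p below 0.05 there were 15 higher and 2 lower, beside 34.4% of all genes in either direction. After the same scaling 7 rose (Acss2, Aacs, Acat2, Mvk, Tm7sf2, Nsdhl and Insig2), beside 8.14%, and 4 fell (Fdft1, Sqle, Msmo1 and Stard4), beside 8.56%. The set's median was 0.45 as deposited and 0.20 scaled, against 0.15 and 0.00 over all genes.

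Between P13 and P8, 4 genes rose (Aacs, Acat2, Pmvk and Tm7sf2) and 0 fell, beside 2.69% of all genes called higher and 1.52% called lower. At an unadjusted p below 0.05 there were 13 higher and 0 lower, beside 15.9% of all genes in either direction. Scaled libraries gave 8 that rose, the same 4 with Acss2, Fdps, Nsdhl and Insig2, beside 3.87%. Without P8 replicate 1 or without P13 replicate 3 only Aacs was called. Between P10 and P8, limma called 0 of the 30 genes, beside 11% of all genes called in either direction. At an unadjusted p below 0.05 there were 4 (1 higher and 3 lower), beside 28.1% of all genes. The scaled libraries gave 2 that rose between P10 and P8, Insig1 at 1.01 (adjusted p = 0.0134) and Msmo1 at 0.76 (adjusted p = 0.048), beside 3.6% of all genes called higher. These comparisons share libraries with their neighbours (P10, P13 and P21 each enter more than once), so a stage that lies high or low enters more than one of them.

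**Figure D2:**
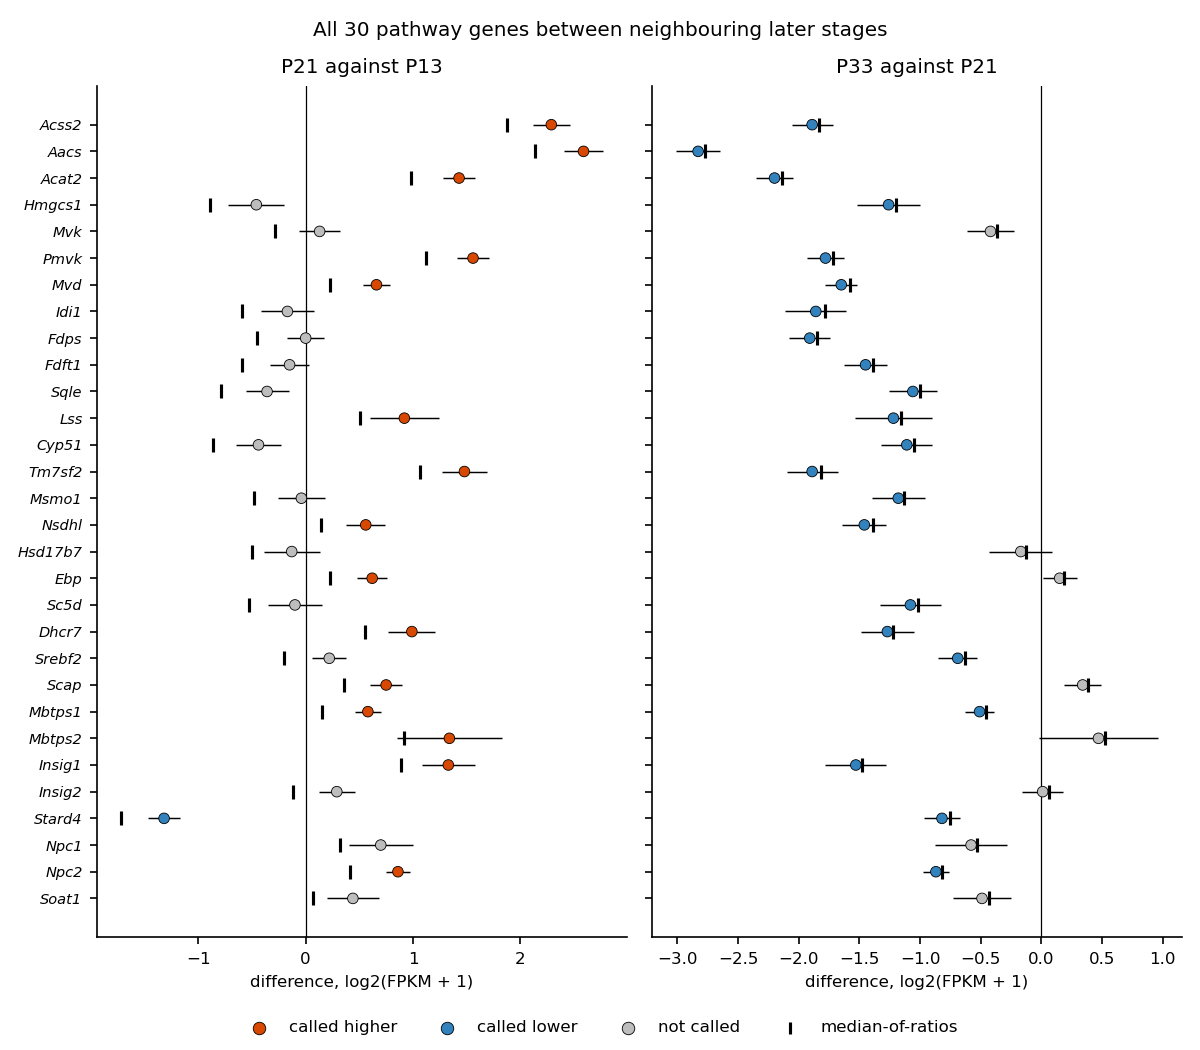
Difference in log2(FPKM + 1) of each of the 30 genes, P21 against P13 on the left and P33 against P21 on the right, with bars of 1 standard error, filled by call, and vertical ticks for the value under median-of-ratios scaling. On the left the ticks sit to the left of every point and 15 genes are called higher, and on the right 22 genes are called lower with the ticks close to the points.

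Of the genes that feed acetyl units into the pathway, Aacs and Acss2 had the 2 largest rises of the set between P21 and P13. Aacs, the cytosolic enzyme that turns ketone-body acetoacetate into acetoacetyl-CoA, had 18.98, 22.3 and 23.8 FPKM at P8, 20.1, 17.9 and 24 at P10, 54.3, 59.3 and 67.2 at P13, 427, 390.5 and 297 at P21 and 43.3, 70.1 and 43.4 at P33. P13 lay above both earlier stages, P21 above every other stage with no overlap, and P33 overlapped P13. On the log2 scale Aacs rose by 1.50 ± 0.18 (adjusted p = 6.3e-05) between P13 and P10 and by 2.59 ± 0.18 (adjusted p = 5.8e-08) between P21 and P13, a ratio of means of 6.16. It fell at P33 by 2.83 ± 0.18 (adjusted p = 5.81e-07) against P21, which was 7.11 times higher in the mean.

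Acss2, which makes acetyl-CoA from free acetate, had 2.61, 3.3 and 3.49 FPKM at P8, 1.69, 2.13 and 2.24 at P10, 5.14, 4.79 and 4.71 at P13, 32.03, 31.9 and 20.9 at P21 and 6.64, 8.69 and 5.27 at P33. The P21 libraries again stood alone above the others, and those of P10 were the lowest. Its log2 difference was 0.97 ± 0.17 (adjusted p = 0.00102) for P13 against P10, 2.29 ± 0.17 (adjusted p = 9.76e-08) for P21 against P13 and -1.89 ± 0.17 (adjusted p = 6.33e-06) for P33 against P21. Exons of Acss2 share bases with Gss, Ggt7 and an antisense transcript, and strand use in the counting is not stated.

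Acat2, the cytosolic thiolase that joins acetyl-CoA units, took the same shape at a smaller scale. It had 13.7, 13.6 and 15.7 FPKM at P10, 28.1, 33.3 and 33.5 at P13, 102, 89.5 and 70.9 at P21 and 16.98, 23.5 and 14.8 at P33, after 17.2, 19.1 and 19.1 at P8. The differences were 1.09 ± 0.15 (adjusted p = 0.000206) for P13 against P10, 1.43 ± 0.15 (adjusted p = 4.4e-06) for P21 against P13 and -2.20 ± 0.15 (adjusted p = 1.02e-06) for P33 against P21, and the P33 libraries overlapped those of P8.

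Hmgcs1, the cytosolic HMG-CoA synthase and the next enzyme on the route, did not share that peak. It had 29.5, 30.8 and 37.1 FPKM at P8, 38.5, 36.4 and 43.9 at P10, 31.5, 38.4 and 38.3 at P13, 38.4, 23.7 and 19.03 at P21 and 9.65, 16.7 and 6.61 at P33. P21 replicate 1 matched the P13 libraries while the other P21 libraries lay below them, and all P33 libraries were below all others. The difference of P21 against P13 was -0.46 ± 0.26 (adjusted p = 0.175) as deposited and -0.89 (adjusted p = 0.00914) scaled, and without P21 replicate 1 Hmgcs1 was called lower as deposited too (-0.73, adjusted p = 0.0337). At P33 it fell by 1.26 ± 0.26 (adjusted p = 0.00633) against P21.

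**Figure D3:**
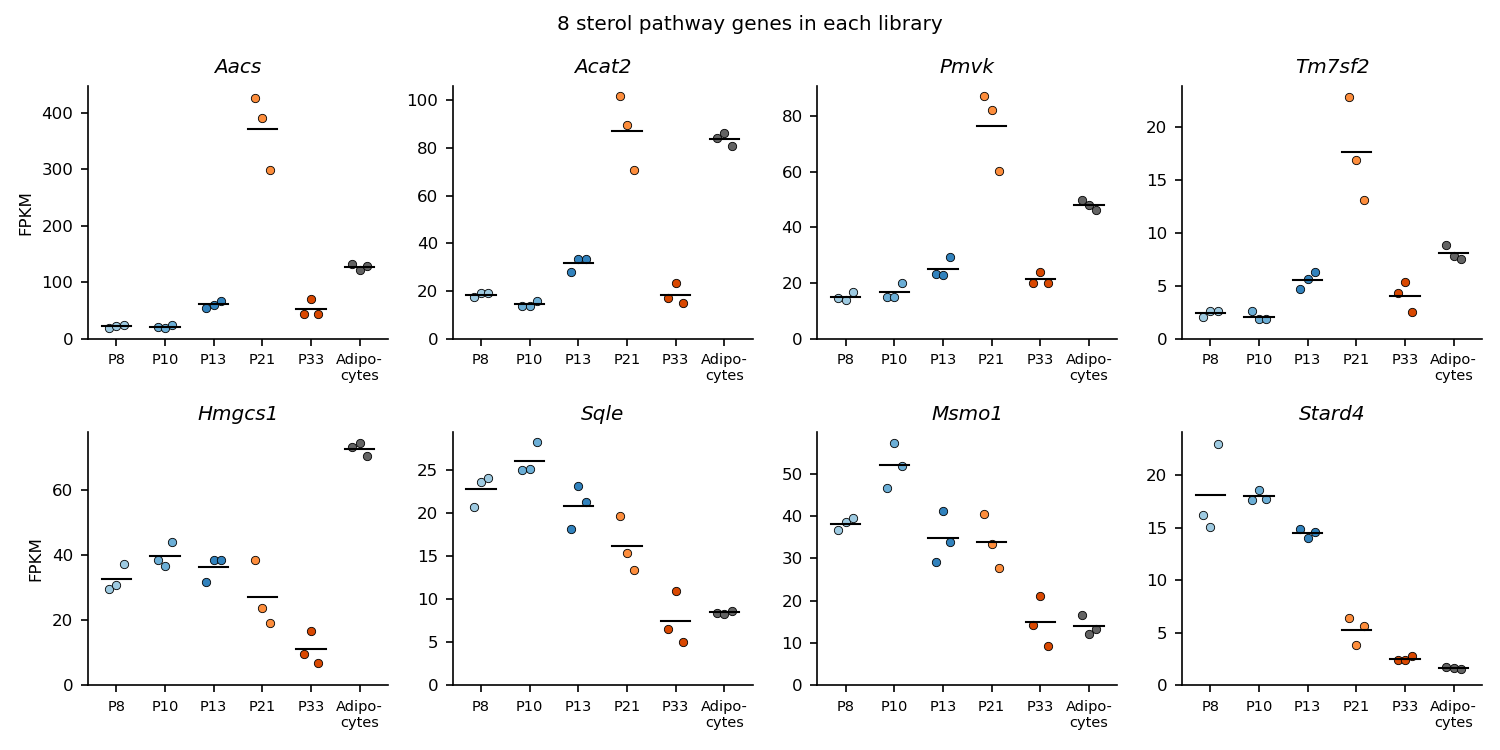
FPKM of 8 genes in each of the 18 libraries, on linear axes from 0, with dots for libraries and a line for the group mean. Among the stages, Aacs, Acat2, Pmvk and Tm7sf2 have their highest mean at P21 and Hmgcs1, Sqle and Msmo1 theirs at P10, while Stard4 lies lower at P21 and P33 than at P8 to P13.

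Among the 6 enzymes from mevalonate to squalene, 5 fell between P33 and P21, beside 7.17% of all genes. Between P21 and P13, 2 (Pmvk and Mvd) rose, beside 36% of all genes. Pmvk, the phosphomevalonate kinase, had 14.7, 13.8 and 16.6 FPKM at P8, 15.03, 14.8 and 19.9 at P10, 23.2, 22.9 and 29.1 at P13, 87.1, 82.2 and 60.1 at P21 and 20.02, 24.04 and 20.03 at P33. P21 stood clear of all other stages, with a difference of 1.56 ± 0.15 (adjusted p = 1.67e-06) against P13 and a fall of 1.78 ± 0.15 (adjusted p = 3.93e-06) at P33 against P21. Mvd, which decarboxylates mevalonate diphosphate, had 13.5, 13.8 and 15.4 FPKM at P13, 24.5, 23.7 and 21.01 at P21 and 5.27, 8.05 and 6.92 at P33. It rose by 0.66 ± 0.13 (adjusted p = 0.00111) at P21 against P13, a call lost on scaling (0.23, adjusted p = 0.117). It fell by 1.65 ± 0.13 (adjusted p = 2.8e-06) at P33 against P21, below every earlier library.

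Mvk, the mevalonate kinase, had 6.69, 9.3 and 9.83 FPKM at P8, 5.61, 5.47 and 5.72 at P10, 11.3, 11.04 and 13.4 at P13, 13.7, 12.7 and 12.8 at P21 and 6.38, 9.88 and 13.3 at P33. P10 lay below the other stages and the P33 libraries spread over a wide range. It rose by 0.96 ± 0.19 (adjusted p = 0.00215) between P13 and P10, was not called between P21 and P13 (0.13 ± 0.19 (adjusted p = 0.614)), and reached -0.42 ± 0.19 (adjusted p = 0.183) for P33 against P21, where leaving out P33 replicate 3 gave a call (-0.65, adjusted p = 0.0188).

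Idi1 and Fdps, the isomerase and the farnesyl diphosphate synthase that follow, overlapped between P21 and P13 and fell at P33 against P21. Idi1 had 16.4, 21.2 and 20.1 FPKM at P13, 20.7, 16.5 and 14.2 at P21 and 4.22, 6.75 and 1.99 at P33, a difference of -1.86 ± 0.25 (adjusted p = 0.000277) for P33 against P21. Fdps had 118, 137 and 107 FPKM at P8, 126, 129 and 153 at P10, 169.7, 189.8 and 204 at P13, 194, 205 and 166 at P21 and 43.5, 68.9 and 40.2 at P33. The P21 and P13 libraries of Fdps overlapped (0.00 ± 0.17 (adjusted p = 0.999)), and all P33 libraries lay below all others, with a fall of 1.91 ± 0.17 (adjusted p = 6.81e-06) against P21. Fdft1, the squalene synthase, had 37.1, 41.5 and 33.9 FPKM at P8, 44.7, 44.7 and 45.5 at P10, 29.5, 32.2 and 36.8 at P13, 32.3, 32.3 and 24.2 at P21 and 8.67, 14.9 and 7.99 at P33. Its P13 and P10 libraries did not overlap, yet the difference (-0.45 ± 0.18 (adjusted p = 0.0845)) was not called in the full model. It was called lower after scaling (-0.72, adjusted p = 0.0104), with only P13 and P10 modelled (adjusted p = 0.0268) and without P33 replicate 2 (adjusted p = 0.0156). Fdft1 shares exon bases with Ctsb on the opposite strand, which stood at 66.2 to 536 FPKM.

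Of the 10 enzymes from squalene to cholesterol, 8 fell between P33 and P21, all but Hsd17b7 and Ebp, beside 7.17% of all genes. Sqle, the squalene epoxidase and a rate-limiting step, had 20.6, 23.6 and 24.1 FPKM at P8, 24.9, 25.1 and 28.2 at P10, 18.1, 23.1 and 21.2 at P13, 19.6, 15.4 and 13.4 at P21 and 6.46, 10.9 and 4.99 at P33. P10 lay above P8, P13 and P21, and P33 below all of them. The difference of P13 against P10 was not called as deposited (-0.32, adjusted p = 0.283) and was called lower scaled (-0.59, adjusted p = 0.0283). Sqle fell by 1.06 ± 0.20 (adjusted p = 0.00299) at P33 against P21, while P21 against P13 gave -0.36 ± 0.20 (adjusted p = 0.158) as deposited and -0.79 (adjusted p = 0.00267) scaled.

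Msmo1, a sterol C4 demethylation enzyme, was also highest at P10, with 36.6, 38.6 and 39.5 FPKM at P8, 46.7, 57.4 and 51.96 at P10, 29.2, 41.2 and 33.9 at P13, 40.5, 33.4 and 27.6 at P21 and 14.2, 21.1 and 9.34 at P33. Its P10 libraries were above every other stage and P33 below them, with a fall of 1.18 ± 0.22 (adjusted p = 0.00332) against P21. As deposited, Msmo1 was called neither for P10 against P8 (0.43, adjusted p = 0.225) nor for P13 against P10 (-0.58, adjusted p = 0.0785). Both were called scaled (0.76, adjusted p = 0.048, and -0.85, adjusted p = 0.0101). Cyp51, the lanosterol demethylase, averaged 15.8 ± 1.75 FPKM at P8, 20.5 ± 2.87 at P10, 16.4 ± 2.78 at P13, 12.2 ± 4.26 at P21 and 4.97 ± 1.09 at P33 (SD, n = 3 each). Cyp51 fell by 1.11 ± 0.21 (adjusted p = 0.00304) at P33 against P21, and it shares exon bases with Akap9 on the opposite strand.

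Tm7sf2, a sterol C14 reductase, was highest at P21, as Aacs and Pmvk were. It had 2.04, 2.59 and 2.57 FPKM at P8, 2.57, 1.83 and 1.8 at P10, 4.72, 5.63 and 6.3 at P13, 22.8, 16.9 and 13.1 at P21 and 4.31, 5.3 and 2.5 at P33. Its P13 libraries lay above P8 and P10, its P21 libraries above all others, and its P33 libraries overlapped both P13 and the early stages. The differences were 1.10 ± 0.21 (adjusted p = 0.00206) for P13 against P10, 1.48 ± 0.21 (adjusted p = 6.72e-05) for P21 against P13 and -1.89 ± 0.21 (adjusted p = 4.1e-05) for P33 against P21. Exons of Tm7sf2 overlap those of Vps51 on the same strand, and Vps51 stood at 5.95 to 19.1 FPKM.

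Lss, Nsdhl and Dhcr7 also rose at P21 against P13 and fell at P33 against P21. Dhcr7, which makes cholesterol from 7-dehydrocholesterol, had 16.6, 12.5 and 21.7 FPKM at P13, 36.1, 32.2 and 33.05 at P21 and 10.2, 16.97 and 13.8 at P33, with P21 above both neighbours. It rose by 0.99 ± 0.22 (adjusted p = 0.00239) at P21 against P13 (scaled, 0.55, adjusted p = 0.0502) and fell by 1.27 ± 0.22 (adjusted p = 0.00177) at P33 against P21. Nsdhl, the sterol C4 decarboxylase, had 4.36, 4.73 and 5.52 FPKM at P10, 8.37, 9.68 and 11.2 at P13, 18.2, 15.8 and 11.1 at P21 and 4.37, 6.15 and 3.89 at P33. Its P21 and P13 libraries overlapped by 1 pair, and the rise at P21 (0.56 ± 0.18 (adjusted p = 0.0236)) was lost without P13 replicate 1, P13 replicate 2, P21 replicate 1 or P21 replicate 2 (adjusted p of 0.0529 to 0.107), while the fall at P33 was -1.46 ± 0.18 (adjusted p = 0.000125). The rise was also lost with only P21 and P13 modelled (adjusted p = 0.0801). Lss, the lanosterol synthase, varied within its groups, with 8.53, 7.81 and 4.17 FPKM at P13, 20.4, 13.9 and 8.12 at P21 and 5.87, 6.26 and 3.64 at P33. Its rise at P21 (0.92 ± 0.32 (adjusted p = 0.0304)) was lost without P13 replicate 3, P21 replicate 1 or P21 replicate 2 (adjusted p of 0.0759 to 0.144). That rise was also lost with only P21 and P13 modelled (adjusted p = 0.119) and with no filter on low values (adjusted p = 0.0556). Its fall at P33 (-1.22 ± 0.32 (adjusted p = 0.0243)) was lost without P21 replicate 1 (adjusted p = 0.0988), P21 replicate 2 (0.0759) or P33 replicate 3 (0.0700).

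Sc5d, the sterol C5 desaturase, had 19.1, 23.3 and 25.9 FPKM at P13, 35.2, 15.2 and 17.3 at P21 and 8.44, 12.8 and 7.66 at P33, with P21 replicate 1 far above the other 2 P21 libraries. It fell by 1.08 ± 0.25 (adjusted p = 0.0115) at P33 against P21. Ebp, the sterol isomerase, was one of the genes with no fall at P33, with 3.18, 2.67 and 4.08 FPKM at P10, 4.87, 5.12 and 5.01 at P13, 8.26, 8.37 and 7.97 at P21 and 10.9, 7.9 and 9.0 at P33. Ebp rose by 0.62 ± 0.14 (adjusted p = 0.00217) at P21 against P13 and was not called at P33 against P21 (0.15 ± 0.14 (adjusted p = 0.586)), where the libraries overlapped. Hsd17b7, a sterol C3 ketoreductase, ranged from 2.44 to 6.8 FPKM over the lipochondrocyte libraries and was called in no comparison between stages.

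The transcript of the regulator itself was called in a single stage comparison, P33 against P21. Srebf2, which encodes SREBP2, had 12.9, 15.99 and 11.8 FPKM at P8, 10.8, 10.6 and 11.7 at P10, 9.88, 13.5 and 11.2 at P13, 11.3, 13.2 and 16.3 at P21 and 6.49, 9.16 and 8.56 at P33. P21 overlapped P8, P10 and P13, while all P33 libraries lay below all others. Srebf2 fell by 0.69 ± 0.16 (adjusted p = 0.0133) at P33 against P21, a call lost without P21 replicate 3 (-0.56, adjusted p = 0.0596) or P33 replicate 1 (-0.55, adjusted p = 0.0615). With only P33 and P21 modelled the fall was not called either (adjusted p = 0.17). For P21 against P13 the difference was 0.22 ± 0.16 (adjusted p = 0.295) as deposited and -0.20 (adjusted p = 0.391) scaled. The protein's cleavage is not measured by transcript levels.

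Of the INSIG genes, Insig1 was called on both sides of P21 and Insig2 on neither with all libraries in, and the difference between the genes was not tested. Insig1, itself a target of SREBP2, had 26.2, 30.8 and 44.3 FPKM at P8, 53.1, 47.9 and 59.5 at P10, 33.05, 39.4 and 56.4 at P13, 136, 101 and 88.9 at P21 and 31.7, 53.8 and 28.1 at P33. Its P21 libraries stood above all other stages and those of P33 overlapped P8, P10 and P13. Insig1 rose by 1.33 ± 0.25 (adjusted p = 0.00072) at P21 against P13 and fell by 1.53 ± 0.25 (adjusted p = 0.00129) at P33 against P21. Insig2, which retains the same SREBP2 and SCAP complex, had 4.91, 5.64 and 7.16 FPKM at P8, 5.0, 4.95 and 6.75 at P10, 7.42, 11.9 and 9.16 at P13, 10.7, 10.6 and 13.7 at P21 and 10.5, 12.1 and 12.6 at P33. It rose by 0.66 ± 0.17 (adjusted p = 0.0106) between P13 and P10, and P33 and P21 overlapped (0.01 ± 0.17 (adjusted p = 0.997)). The rise was lost without P13 replicate 2 (0.51, adjusted p = 0.0584) and with only P13 and P10 modelled (adjusted p = 0.0671). For P21 against P13 Insig2 differed by 0.29 (adjusted p = 0.182), and it was called higher without P13 replicate 2 (0.45, adjusted p = 0.0495). The ratio of Insig1 to Insig2 FPKM was 5.34, 5.47 and 6.18 at P8, 10.6, 9.68 and 8.81 at P10, 4.45, 3.32 and 6.16 at P13, 12.7, 9.53 and 6.48 at P21 and 3.01, 4.46 and 2.24 at P33. P10 and P21 held the highest ratios and P33 overlapped only P13.

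**Figure D4:**
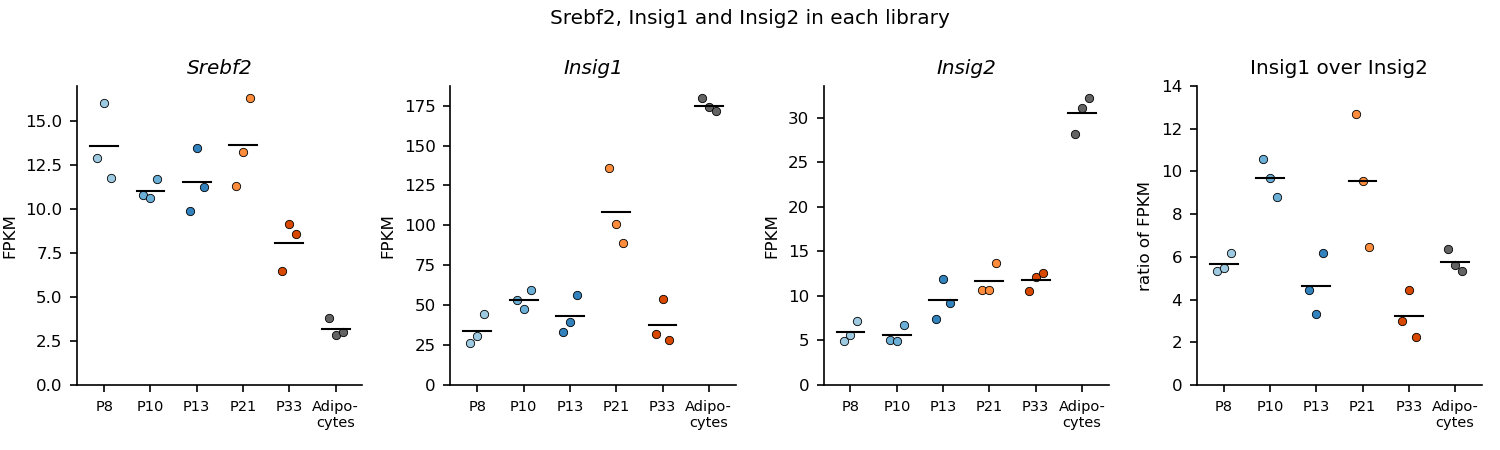
FPKM of Srebf2, Insig1 and Insig2 and the ratio of Insig1 to Insig2 in each library, on linear axes from 0, with dots for libraries and a line for the group mean. Srebf2 is lowest among the stages at P33, Insig1 has its highest stage at P21, and Insig2 lies at the same level at P21 and P33.

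The processing genes differed among themselves. Scap, the escort of SREBP2, had 5.17, 4.11 and 5.37 FPKM at P13, 9.08, 7.85 and 9.81 at P21 and 9.54, 10.8 and 14.8 at P33. P21 was above P13 (0.75 ± 0.15 (adjusted p = 0.00118)) and overlapped P33 (0.34 ± 0.15 (adjusted p = 0.187)). Mbtps1, the site-1 protease, had 15.3, 18.1 and 17.99 FPKM at P13, 25.3, 25.5 and 27.1 at P21 and 16.1, 16.6 and 21.4 at P33. It rose by 0.58 ± 0.12 (adjusted p = 0.00123) at P21 against P13 and fell by 0.51 ± 0.12 (adjusted p = 0.0115) at P33 against P21. The fall was lost without P33 replicate 1 (adjusted p = 0.0523) and with only P33 and P21 modelled (adjusted p = 0.153). Mbtps2, the site-2 protease, had 12.5, 4.96 and 6.76 FPKM at P13, 19.02, 23.1 and 20.1 at P21 and 54.1, 49.9 and 8.68 at P33. P33 replicate 3 lay far below the other 2 P33 libraries, and P33 against P21 was not called (0.47 ± 0.49 (adjusted p = 0.632)) unless that library was left out (1.29, adjusted p = 0.00679). The rise at P21 against P13 (1.34 ± 0.49 (adjusted p = 0.0383)) was lost without P13 replicate 2, P13 replicate 3 or any 1 of the P21 libraries (adjusted p of 0.0660 to 0.134). With no filter on low values it was lost as well (adjusted p = 0.0703).

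Stard4, a cytosolic carrier that moves cholesterol between membranes and a known SREBP2 target, was the gene of the set that fell while others rose. It had 16.2, 15.1 and 23 FPKM at P8, 17.7, 18.6 and 17.7 at P10, 14.8, 14.03 and 14.6 at P13, 6.39, 3.85 and 5.6 at P21 and 2.36, 2.43 and 2.76 at P33. The P21 libraries lay below all earlier ones and the P33 libraries below those of P21. Stard4 fell by 1.32 ± 0.15 (adjusted p = 9.03e-06) at P21 against P13 and by 0.82 ± 0.15 (adjusted p = 0.0032) at P33 against P21. The gene that handles lysosomal cholesterol with NPC1, Npc2, had 52.03, 60.9 and 58.9 FPKM at P13, 100.3, 108 and 105 at P21 and 48.5, 59.9 and 63.2 at P33, with P21 above both neighbours. It rose by 0.86 ± 0.11 (adjusted p = 2.92e-05) at P21 against P13 and fell by 0.87 ± 0.11 (adjusted p = 0.000156) at P33 against P21. Npc1, the membrane partner, had 4.89, 5.48 and 1.83 FPKM at P13, 4.91, 7.45 and 8.18 at P21 and 4.57, 5.22 and 2.93 at P33, and no comparison between stages called it with all libraries in. Npc1 was called higher at P21 against P13 without P13 replicate 2 (0.92, adjusted p = 0.0349) or P21 replicate 1 (0.89, adjusted p = 0.0438), against 0.70 (adjusted p = 0.0728) with all, and at P13 against P10 without P13 replicate 3 (0.80, adjusted p = 0.0499). Soat1, which esterifies cholesterol for storage in droplets, had 3.28, 5.27 and 3.32 FPKM at P13, 7.43, 4.18 and 5.69 at P21 and 3.71, 4.24 and 3.3 at P33, with overlapping groups and no call between stages, except for P13 against P10 when P8 replicate 3 was left out (0.60, adjusted p = 0.0409).

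Set against adipocytes, pathway genes lay on both sides at every stage. At P33, where age and isolation match, 7 of the 30 genes were higher and 17 lower than in adipocytes, beside 24% and 44.5% of all genes. At P21 the counts were 14 higher and 7 lower, beside 24.5% and 43.1%. Adipocyte libraries stood higher in general, and scaling gave 7 higher and 16 lower at P33, beside 30.3% and 34.9%, and 18 higher and 5 lower at P21, beside 29.7% and 34.5%. For P8, 9 were higher and 17 lower, beside 19.3% and 52.2% of all genes (scaled, 12 and 11, beside 30.7% and 36%). For P10 there were 8 higher and 17 lower, beside 16.8% and 58.9% (scaled, 13 and 10, beside 32% and 36.9%). For P13 there were 8 higher and 12 lower, beside 17.8% and 54% (scaled, 15 and 6, beside 30% and 34.7%). All 5 comparisons share the same adipocyte libraries. The set's median was -0.77 at P33 and 0.39 at P21, against -0.28 and -0.25 over all genes.

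**Figure D5:**
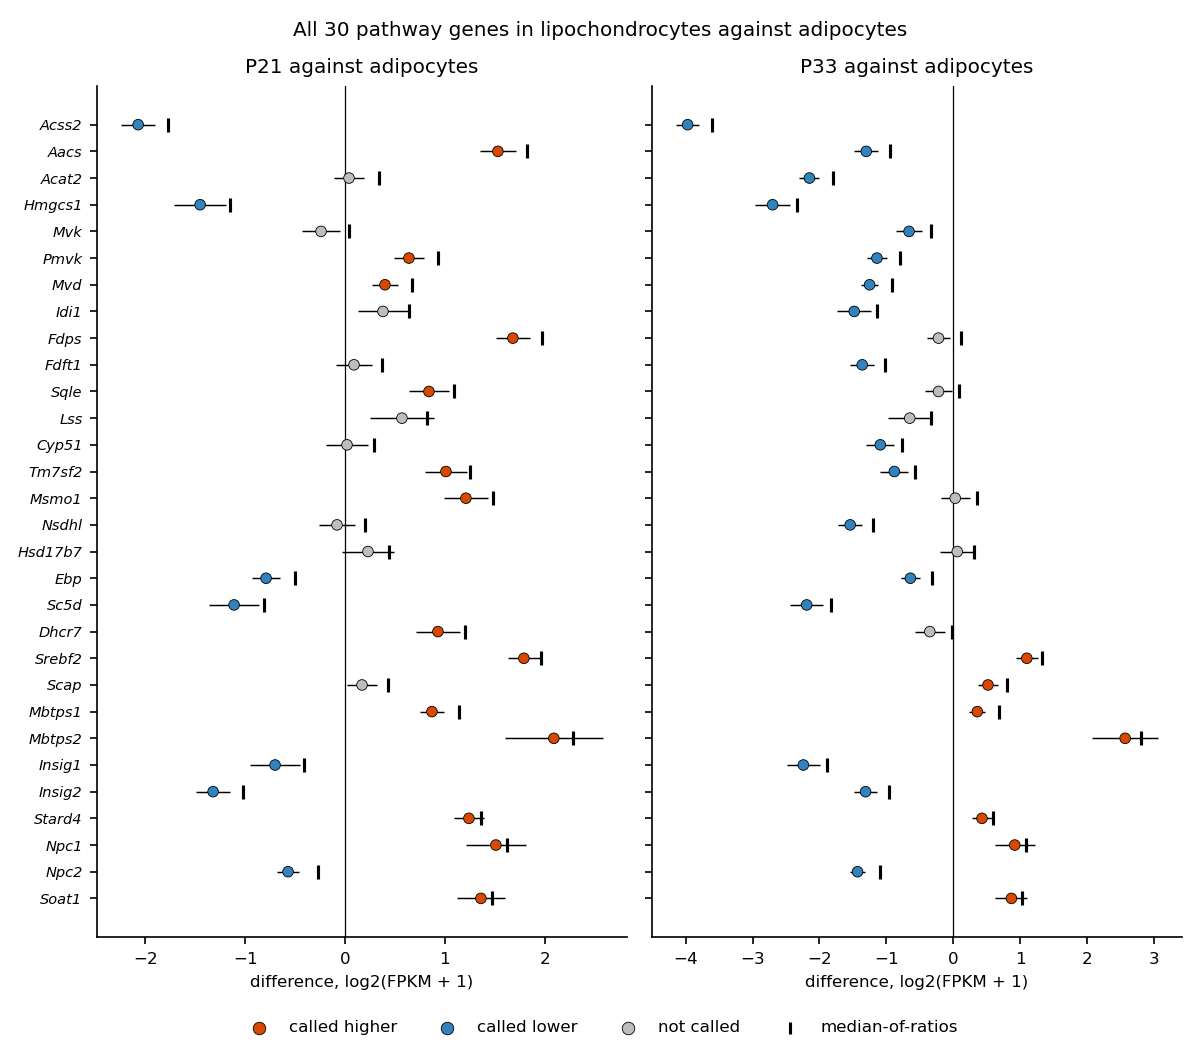
Difference in log2(FPKM + 1) of each of the 30 genes, P21 lipochondrocytes against adipocytes on the left and P33 lipochondrocytes against adipocytes on the right, with bars of 1 standard error, filled by call, and vertical ticks for median-of-ratios scaling. At P21, 14 genes are called higher and 7 lower, and at P33 7 higher and 17 lower.

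Acss2 had 122, 116 and 122 FPKM in adipocytes, above every lipochondrocyte library, and the differences on the log2 scale were -4.88 at P8, -5.33 at P10, -4.37 at P13, -2.07 at P21 and -3.97 at P33, all called. Aacs, at 131, 121 and 128 FPKM in adipocytes, was lower in lipochondrocytes at P8, P10, P13 and P33 (-1.30 ± 0.18 at P33, adjusted p = 1.34e-05) and higher at P21 (1.53 ± 0.18 (adjusted p = 2.47e-06)). Acat2 had 84.3, 86.2 and 80.97 FPKM in adipocytes, which the P21 libraries spanned (0.04 ± 0.15 (adjusted p = 0.814)) and the P33 libraries lay below (-2.15 ± 0.15 (adjusted p = 5.96e-09)). Hmgcs1 had 72.98, 74.1 and 70.1 FPKM in adipocytes, above every lipochondrocyte library, and was called lower at all 5 stages as deposited, by 2.70 ± 0.26 (adjusted p = 2.17e-07) at P33. Scaling turned its P10 difference from adipocytes to 0.15 (adjusted p = 0.577), against -0.86 as deposited, and its calls at P8 and P13 were lost as well. The scaled P13 call of Aacs was also lost (-0.32, adjusted p = 0.0862).

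Fdps had 56.5, 54.5 and 62.8 FPKM in adipocytes, below every lipochondrocyte library up to P21 and within the P33 range. It was higher by 1.68 ± 0.17 (adjusted p = 3.58e-07) at P13 and 1.68 ± 0.17 (adjusted p = 4.11e-07) at P21 and not called at P33 (-0.22 ± 0.17 (adjusted p = 0.263)). Sqle stood at 8.4, 8.3 and 8.61 FPKM in adipocytes, and its difference was 1.52 ± 0.20 (adjusted p = 4.19e-06) at P10, 0.84 ± 0.20 (adjusted p = 0.00143) at P21 and -0.22 ± 0.20 (adjusted p = 0.334) at P33. Without P33 replicate 2 both were called lower at P33, Fdps at -0.46 (adjusted p = 0.00897) and Sqle at -0.50 (adjusted p = 0.0104). Sc5d had 48.2, 45.8 and 45.4 FPKM in adipocytes and was lower at every stage, by 2.19 ± 0.25 (adjusted p = 1.29e-06) at P33, with the P10 and P13 calls lost on scaling (adjusted p = 0.163 and 0.291). Ebp, at 14.3, 16.03 and 14.4 FPKM in adipocytes, was likewise lower at every stage, by 1.89 ± 0.14 (adjusted p = 4.5e-09) at P10 and 0.64 ± 0.14 (adjusted p = 0.000629) at P33.

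Srebf2 and Stard4 were higher in lipochondrocytes than in adipocytes at all 5 stages. Srebf2 had 3.78, 2.85 and 2.99 FPKM in adipocytes, below every lipochondrocyte library, and the difference was 1.79 ± 0.16 (adjusted p = 9.43e-08) at P21 and 1.10 ± 0.16 (adjusted p = 1.94e-05) at P33. Stard4 had 1.73, 1.58 and 1.53 FPKM in adipocytes, with differences of 2.85 at P8, 2.86 at P10, 2.57 at P13, 1.24 at P21 and 0.43 at P33. The P33 call of Stard4 (adjusted p = 0.0218) was lost without P33 replicate 3, adipocyte replicate 2 or adipocyte replicate 3. Both INSIG genes ran the opposite way. Insig1 had 179.6, 174 and 171 FPKM in adipocytes, above all lipochondrocyte libraries, and was lower by 2.24 ± 0.25 (adjusted p = 1.25e-06) at P33. At P21 Insig1 differed by -0.70 ± 0.25 (adjusted p = 0.0221), a call lost under scaling (-0.41, adjusted p = 0.116) and without P21 replicate 2, P21 replicate 3 or adipocyte replicate 1. Insig2 had 28.2, 31.01 and 32.2 FPKM in adipocytes and differed by -1.32 ± 0.17 (adjusted p = 4.63e-06) at P21 and -1.31 ± 0.17 (adjusted p = 4.86e-06) at P33. The ratio of Insig1 to Insig2 in adipocytes was 6.37, 5.61 and 5.33, above that of every P33 lipochondrocyte library.

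Mbtps2 had 3.8, 3.31 and 5.3 FPKM in adipocytes and was higher at P21 (2.09 ± 0.49 (adjusted p = 0.00147)) and P33 (2.57 ± 0.49 (adjusted p = 0.000259)), with no overlap at either stage. Npc1, at 1.87, 1.73 and 1.54 FPKM in adipocytes, was higher by 1.51 ± 0.30 (adjusted p = 0.000363) at P21 and by 0.92 ± 0.30 (adjusted p = 0.0123) at P33, the P33 call lost without P33 replicate 2. Soat1 had 1.93, 1.4 and 1.45 FPKM in adipocytes and was higher at P13, P21 and P33, by 1.36 ± 0.24 (adjusted p = 0.000114) at P21. Npc2 alone of the transport genes was lower than in adipocytes (156, 153 and 157 FPKM) at all 5 stages, by 0.57 ± 0.11 (adjusted p = 0.000371) at P21 (scaled, -0.27, adjusted p = 0.0788) and 1.43 ± 0.11 (adjusted p = 1.82e-08) at P33.

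Other genes of the pathway, in 5 lists chosen with earlier results of these data known, gave counts to be read beside 7.17% of all genes called lower between P33 and P21, and 36% called higher and 7.04% lower between P21 and P13. Of 12 tested genes of sterol synthesis and SREBP action outside the set, 6 fell between P33 and P21, and 7 rose and 2 fell between P21 and P13. Tmem97, a regulator of NPC1 levels, fell by 1.22 ± 0.33 (adjusted p = 0.0273) at P33 against P21, and Acat1, the mitochondrial thiolase, by 0.67 ± 0.11 (adjusted p = 0.00152). Srebf1, which encodes the SREBP of fatty acid synthesis, had 96.1, 124 and 162 FPKM at P21 against 23.5, 20.9 and 25.9 at P13, with no overlap, and rose by 2.37 ± 0.21 (adjusted p = 5.22e-07). Srebf1 was not called between P33 and P21 (-0.34 ± 0.21 (adjusted p = 0.354)).

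Of 11 tested genes of lysosomal and membrane sterol transport, 2 fell between P33 and P21, and 7 rose between P21 and P13. Scarb1, the HDL receptor that takes up cholesteryl esters, had 20.4, 25.7 and 14.4 FPKM at P33 against 79.99, 56.6 and 45.2 at P21, with no overlap, and fell by 1.54 ± 0.20 (adjusted p = 0.000148). Of 8 tested genes of the LXR pathway, which answers to oxysterols, 2 fell between P33 and P21 (Lpcat3 and Nr1h3) and 6 rose between P21 and P13, Apoe by 3.11 ± 0.22 (adjusted p = 5.53e-08) and Nr1h3 by 2.64 ± 0.14 (adjusted p = 2.03e-09). The 10 genes of sterol-regulated protein degradation gave 4 that rose between P21 and P13, and the 10 genes of the dolichol, prenyl and ubiquinone branches gave 5, shares near that of all genes. Between P33 and P21 the smallest adjusted p in those lists was 0.0897, for Coq2 (0.32). Under scaling the numbers that rose between P21 and P13 were 4, 3, 4, 0 and 0 in the order of these lists and those that fell were 4, 1, 0, 1 and 1, beside 16% of all genes in each direction, and the call of Nr1h3 between P33 and P21 was lost.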

How the data were processed

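RNA of 18 libraries in 6 groups of 3 was sequenced. The authors deposited FPKM per gene with 1 column per library, and a second table that gives, per the file headers, the count of total reads and the percent aligned. Per the submitters' processing notes, STAR 2.4.2a was the aligner and mm10 the genome build; the quantifier, its annotation and its use of strand are not stated, so genes that share exon bases (11 of the 30) are uncertain. FPKM carry no depth per gene, which leaves counting error unknown.

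FPKM were changed to log2(FPKM + 1), which understates changes of low genes, and genes at 1 FPKM or more in at least 3 libraries (13815) were fitted with limma 3.58.1 in R 4.3.3: 6 group means, all libraries, and a prior variance that follows the mean. The 10 comparisons used two-sided tests with Benjamini-Hochberg adjustment over all tested genes, and calls are those below 0.05. The step was run on simulated data with the same spread for all genes and groups and no differences in library scale. That run cannot speak to unequal spread or scale in the real libraries. Errors in the text after ± are standard errors of log2 differences unless marked SD. Alternatives were a pseudocount of 0.1, no filter, median-of-ratios scaling, only the groups compared, a replicate block and leaving out each library. Values per library are given for the called genes with the 6 largest differences in each comparison whose groups did not overlap, and for Srebf2, Insig1, Insig2, Hmgcs1 and Sqle; further genes were added for their role. The members and lists were chosen with earlier results of these data known. Same-numbered libraries had correlated deviations of -0.17 to 0.21, so numbers were not taken as pairs. Gene overlaps are from GENCODE M21 and promoters from RefSeq (GRCm38.p6). Plots used Python 3.11.15 and matplotlib 3.10.9. Some items of the wider pathway lists are not reported here by name.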

Additional observations from a re-analysis of the deposited data

How the results depend on the processing

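Of the counts of called genes in either direction, those that moved by more than 1.5 times with all libraries in were P10 against P8, from 0 to 1 with a pseudocount of 0.1 and to 2 under median-of-ratios scaling; P13 against P8, from 4 to 8 under that scaling; and P33 against P21, from 22 to 6 with only those libraries modelled. Under median-of-ratios scaling, counts in 1 direction moved further: P13 against P10 gave 7 higher and 4 lower (12 and 0 as deposited), P21 against P13 gave 7 and 5 (15 and 1), P8 against adipocytes 12 and 11 (9 and 17), P10 against adipocytes 13 and 10 (8 and 17) and P13 against adipocytes 15 and 6 (8 and 12). With only its own groups modelled, P13 against P10 gave 3 lower. Without P21 replicate 1, 3 were lower for P21 against P13, and without P33 replicate 2 there were 2. For P13 against P10, 2 were lower without P33 replicate 2 or P33 replicate 3. For P13 against P8, 1 was lower and for P33 against P21, 1 was higher without P33 replicate 3. Leaving out 1 library at a time gave 0 to 1 for P10 against P8, 7 to 15 for P13 against P10 (7 without P10 replicate 1), 1 to 6 for P13 against P8, 13 to 17 for P21 against P13 and 20 to 23 for P33 against P21. Against adipocytes it gave 23 to 27 at P8, 25 to 25 at P10, 18 to 24 at P13, 20 to 21 at P21 and 22 to 25 at P33. With the replicate number as a block, the counts were 0, 12, 6, 16 and 22 for those 5 stage comparisons and 26, 25, 21, 21 and 24 against adipocytes; the numbers are not known to pair libraries, and the block added Fdps (adjusted p = 0.0475) and Insig2 (adjusted p = 0.0172) to P13 against P8. The difference of Hmgcs1 between P10 and adipocytes reversed to 0.15 under scaling. Scaling also changed the sign of other differences from adipocytes whose calls it removed. These were Mvd, Dhcr7 and Scap at P8 and at P10, and Nsdhl and Scap at P13. Other genes, negative and uncalled as deposited, became called higher: Mvd (0.44, adjusted p = 0.00188) and Dhcr7 (0.65, adjusted p = 0.0114) at P13, and Hsd17b7 (0.68, adjusted p = 0.0323) at P10. A tally was kept for Srebf2, Insig1, Insig2, Hmgcs1, Sqle and the called, non-overlapping genes with the 6 largest differences in each comparison. Over settings other than leaving out a library, 445 of its values kept their call or stayed uncalled, 13 lost the call, 6 gained it and 1 reversed. Leaving out a library of the groups compared kept 534, lost 19 and gained 5. Calls of other genes, and libraries of other groups, were outside this tally. Shares of all genes are given above for the deposited values and for median-of-ratios scaling. For the other settings only that of P33 against P21 with its own groups modelled is given (0.709% called lower). A count that moved under those settings may therefore not be particular to the set. The causes of the moves were not tested. With 3 libraries per group and no counts per gene, differences of genes such as Hsd17b7, Npc1 and Soat1 have standard errors of 0.24 to 0.30. Changes well above that size can go uncalled, as for Npc1 between P21 and P13 (0.70, adjusted p = 0.0728).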
